A study of Arabidopsis thaliana with 9 samples.

Results

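The NET (NETWORKED) genes of Arabidopsis thaliana were followed in whole seedlings placed on an auxin and a cytokinin. They were found as the probe sets that the array annotation pairs with 1 gene whose symbol is NET followed by a number and a letter, and 6 of the 10343 probe sets tested, for 6 of the 5486 gene IDs that probe sets with 1 gene carry, met this rule. These were NET1A (AT3G22790), NET1B (AT4G14760), NET1C (AT4G02710), NET1D (AT1G03080), NET2D (AT2G22560) and NET4B (AT2G30500). The reference gene table lists 13 NET genes, and the other 7 (NET2A, NET2B, NET2C, NET3A, NET3B, NET3C and NET4A) were not analysed here. The seedlings were wild type, 4 days old at the start, and were sampled at 0 d (no hormone), after 2 d or after 8 d on Murashige and Skoog medium with 2.26 µM 2,4-D, a synthetic auxin, and 0.46 µM kinetin, a cytokinin. Each time point had 3 Affymetrix arrays, and the labels do not say whether these came from separate cultures, so p-values measure only the spread between the arrays, which may be technical. Mixtures of this kind are used to turn plant tissue into callus, and the submitters made these arrays to set the hormones beside FPX, another callus inducer. Time on hormone and seedling age cannot be told apart, since older seedlings without hormone were not analysed here.

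NET proteins are plant proteins that bind actin filaments through a shared domain near their N-terminus, the NET actin-binding (NAB) domain, and carry long coiled coils behind it. Different clades tie actin to different membranes. NET1A is found on actin at the plasma membrane and at plasmodesmata, the channels between plant cells, and with NET1B it affects the expansion of root cells. NET2 proteins are best known from pollen tubes, where NET2A meets receptor-like kinases at the plasma membrane. NET3C sits where the endoplasmic reticulum touches the plasma membrane, and NET4A and NET4B are found on the membrane of the vacuole, where they meet small GTPases of the Rab7 class. Through such links actin shapes cell growth, vacuole form and traffic along the cell cortex.

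The 6 measured genes stand for 3 of the clades, with all 4 NET1 genes, 1 NET2 gene and 1 NET4 gene. NET1B and NET1C lie on chromosome 4, NET2D and NET4B on chromosome 2, NET1A on chromosome 3 and NET1D on chromosome 1. In the reference table (assembly TAIR10.1) the genes span 6564 bases for NET1A, 6574 for NET1B, 6753 for NET1D, 4115 for NET1C, 3818 for NET2D and 2721 for NET4B. Each gene had 1 probe set, of the type designed to match a single gene, and 4 of the genes (NET1A, NET1B, NET1D and NET4B) have more than 1 annotated transcript, which the probe sets do not separate.

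Values are MAS5 probe set signals on a linear scale, and changes are differences in mean log2 signal with the standard error (SE) from limma. A gene was called changed at an adjusted p under 0.05 together with a log2 change of at least 1. Array medians rose with the time points, from 445 to 452 at 0 d, 501 to 510 at 2 d and 538 to 546 at 8 d. Upper quartiles of the arrays lay between 1060 and 1101. The number of arrays limits the precision. In a one-way F test 10323 of the 10343 probe sets differed between time points at an unadjusted p under 0.05, so the table looks like a selection made from these arrays, which makes adjusted p-values too small. Of the tested probe sets, 14.9% were called at 2 d against 0 d, 43.5% at 8 d against 0 d and 22.1% at 8 d against 2 d, and the median change of all of them was 0.19, 0.40 and 0.26. Without detection calls a dim signal cannot be judged against background, and signals of different probe sets are not set against each other.

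Markers of tissues in the seedling moved over the same days. The 6 measured of 9 listed genes of photosynthetic tissue had a summed signal of 72668 to 83731 at 0 d, 63521 to 78443 at 2 d and 26919 to 35959 at 8 d. At 8 d against 0 d 5 of the 6 were called lower, as were 18.1% of all probe sets. The 1 measured of 6 listed root hair markers, EXPA7, had signals of 410 to 606 at 0 d, 61.6 to 131 at 2 d and 62.7 to 112 at 8 d. No signal in the table was at 0. Listed markers of xylem, phloem and pollen were not analysed here. In whole seedlings fewer cells of a type and less RNA per cell cannot be told apart, and the part of these shifts in the NET values below was not tested.

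NET1A rose at both times and had the largest rise of the 6 genes. Its signal was 149, 156 and 191 in the 3 arrays at 0 d, 472, 372 and 459 at 2 d, and 942, 940 and 840 at 8 d. The 3 time points did not overlap, with every 2 d array above every 0 d array and every 8 d array above every 2 d array. At 2 d against 0 d NET1A averaged 434 ± 54.3 at 2 d and 165 ± 22.7 at 0 d (SD, n = 3 each), a log2 change of 1.39 (SE 0.13, 95% interval 1.1 to 1.69, limma adjusted p = 2.78e-05), or 2.63-fold. At 8 d its mean was 907 ± 58.2 (SD, n = 3), a log2 change of 2.46 over 0 d (SE 0.13, limma adjusted p = 1.86e-07), or 5.51-fold. The step from 2 d to 8 d was 1.07 (SE 0.13, limma adjusted p = 7.14e-05), close to the fold threshold, and it was at 0.96 without 2 d replicate 2, at 0.97 after centring on the array median or with 64 added to each signal and at 0.95 after centring on hybridisation controls, none of them called. By 2 d NET1A had covered 56.6% of its 8 d change on the log2 scale. Only 4.24% of all probe sets had a larger log2 change at 2 d against 0 d, and 2.25% at 8 d against 0 d.

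**Figure D1:**
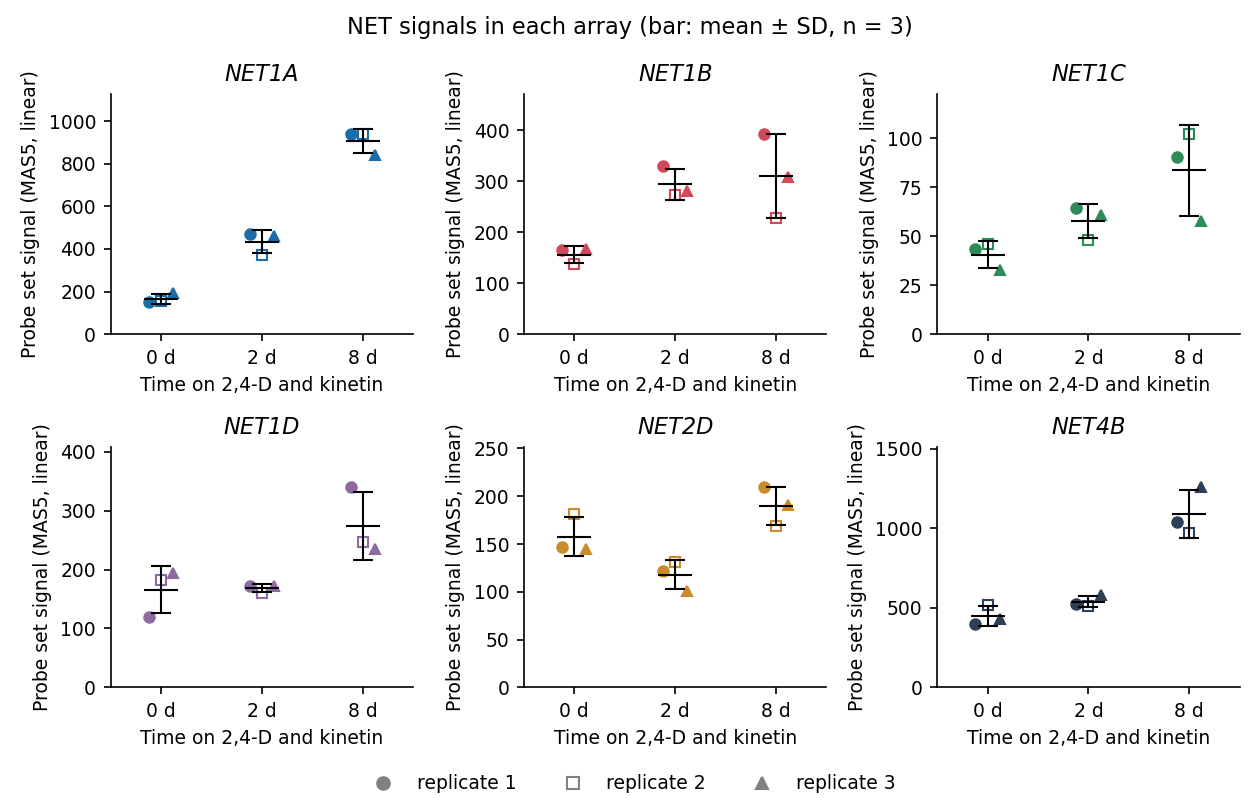
Probe set signal (MAS5, linear, y axis from 0) of each NET gene at 0 d, 2 d and 8 d on 2,4-D and kinetin (x axis), with 1 marker per array and bars for the mean ± SD of 3 arrays. NET1A climbs at each time, NET4B is high only in the 8 d arrays (970 to 1261), and the 3 time points of NET2D lie between 101 and 210.

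NET1B, known with NET1A from root cells, was higher at both times but did not reach the fold threshold. Its signal was 164, 137 and 167 at 0 d, 329, 273 and 280 at 2 d, and 393, 229 and 308 at 8 d. All treated arrays lay above all 0 d arrays, while the 2 d and 8 d arrays overlapped, with 8 d replicate 2 below every 2 d array. The log2 change was 0.92 at 2 d against 0 d (SE 0.18, 95% interval 0.51 to 1.32, limma adjusted p = 0.00182) and 0.96 at 8 d against 0 d (SE 0.18, 95% interval 0.56 to 1.37, limma adjusted p = 0.000594). At 8 d against 2 d it was 0.05 (95% interval -0.36 to 0.45, limma adjusted p = 0.826), so a step as large as that of NET1A lies outside this interval; the difference between the genes was not tested. NET1B was called at 8 d against 0 d when 8 d replicate 2 was left out (1.16), and also when either 0 d replicate 3 (1.01) or 0 d replicate 1 (1.002) was. Other settings lowered it, to 0.53 after quantile normalization (limma adjusted p = 0.028), 0.69 after median centring and 0.77 without 8 d replicate 1, and its 2 d value was 0.61 after quantile normalization (limma adjusted p = 0.0234).

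NET1C and NET1D, the remaining NET1 genes, were higher at 8 d against 0 d, by less than NET1A. NET1C gave a signal of 43.4, 45.9 and 32.6 at 0 d, 64.5, 47.9 and 61.0 at 2 d, and 90.6, 102 and 57.8 at 8 d. At 8 d replicate 3 its signal was within the range of the 2 d arrays. Of its 9 signals 8 were under 100, dim values that cannot be judged against background without detection calls. NET1C passed the test at 8 d against 0 d at 1.02 (SE 0.22, limma adjusted p = 0.00134), just past the fold threshold, and fell short of it at 0.49 when 64 was added to each signal, at 0.79 with 16 added, at 0.98 after centring on the 75th percentile, at 0.74 after median centring, at 0.85 without 8 d replicate 2, at 0.86 without 0 d replicate 3 and at 0.94 without 8 d replicate 1. At 2 d against 0 d it was at 0.51 (SE 0.22, limma adjusted p = 0.0622).

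NET1D had a signal of 120, 182 and 195 at 0 d, 172, 161 and 172 at 2 d, and 341, 247 and 236 at 8 d. The 2 d arrays fell inside the range of the 0 d arrays, and every 8 d array was above both. Its log2 change was 0.05 at 2 d against 0 d (SE 0.19, 95% interval -0.38 to 0.48), 0.74 at 8 d against 0 d (SE 0.19, limma adjusted p = 0.00422) and 0.69 at 8 d against 2 d (SE 0.19, limma adjusted p = 0.00862). None of these reached the fold threshold. The 8 d value over 0 d was 0.30 after quantile normalization, with a limma adjusted p of 0.168, and 0.47 after median centring (limma adjusted p = 0.0427). The sign at 2 d was not settled, since it turned to -0.12 after median centring, to -0.30 after quantile normalization and to -0.16 without 0 d replicate 1.

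NET2D, of the clade known from pollen tubes, was the only NET gene whose 2 d arrays all lay below its 0 d arrays. The signal was 147, 182 and 145 at 0 d, 121, 131 and 101 at 2 d, and 210, 169 and 190 at 8 d. The 8 d arrays overlapped those at 0 d and lay above all those at 2 d. Its log2 change was -0.42 at 2 d against 0 d (SE 0.14, 95% interval -0.73 to -0.11, limma adjusted p = 0.0228) and 0.69 at 8 d against 2 d (SE 0.14, limma adjusted p = 0.00146), both short of the fold threshold. The 2 d value over 0 d moved with scaling, to -0.22 when arrays were centred on hybridisation controls (limma adjusted p = 0.231), and down to -0.59 with median centring and -0.81 with quantile normalization. Its adjusted p by limma also passed 0.05 without 0 d replicate 2 (-0.32, adjusted p = 0.089) and without 2 d replicate 3 (-0.32, adjusted p = 0.086). At 8 d against 0 d it was at 0.27 (SE 0.14, 95% interval -0.04 to 0.58, limma adjusted p = 0.0899), below the median change of all probe sets, and it was at -0.17 after quantile normalization and at -0.0043 after median centring.

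NET4B, the vacuole membrane member, rose late. It gave a signal of 398, 518 and 431 at 0 d, 523, 515 and 581 at 2 d, and 1037, 970 and 1261 at 8 d. The 2 d arrays overlapped the 0 d arrays, whereas every 8 d array exceeded every earlier one. In the 8 d against 0 d comparison it averaged 1089 ± 152 at 8 d and 449 ± 62.2 at 0 d (SD, n = 3 each), a log2 change of 1.28 (SE 0.14, 95% interval 0.98 to 1.58, limma adjusted p = 1.01e-05), or 2.43-fold. At 2 d against 0 d it was at 0.27 (SE 0.14, 95% interval -0.03 to 0.57, limma adjusted p = 0.1), which is 21.3% of the 8 d change on the log2 scale; after centring on hybridisation controls it was 0.47 (limma adjusted p = 0.014). The change from 2 d to 8 d was 1.01 (SE 0.14, limma adjusted p = 0.000117), at the fold threshold itself. It was at 0.90 without 8 d replicate 3, at 0.97 without 2 d replicate 2 and at 0.99 without 2 d replicate 1, none of them called. It was also not called after centring on the array median (0.91), the 75th percentile (0.97) or hybridisation controls (0.88). The same held with 16 added to each signal (0.99), with 64 added (0.93) and with array weights (0.95).

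**Figure D2:**
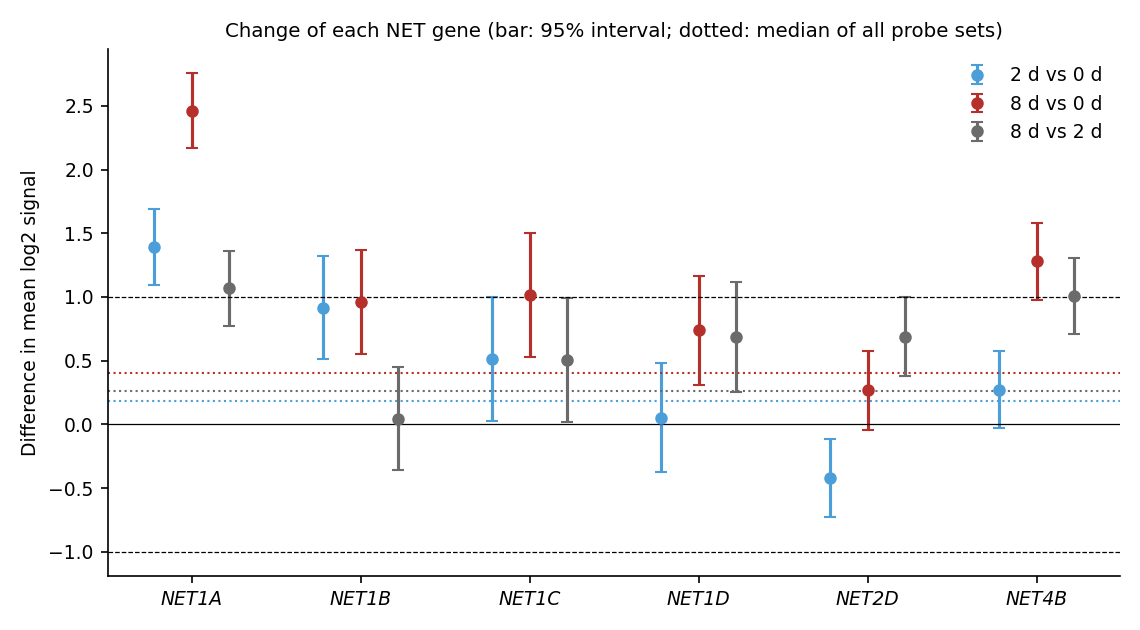
Difference in mean log2 signal (y axis) of each NET gene (x axis) for 2 d vs 0 d, 8 d vs 0 d and 8 d vs 2 d, with 95% intervals from limma, dashed lines at a log2 change of 1 and -1, and dotted lines at the median of all probe sets in each comparison. NET1A stands highest at 1.39 and 2.46 over 0 d, and NET2D at 2 d vs 0 d (-0.42) is the lowest value.

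Across the family, 1 of 6 genes was called at 2 d against 0 d, NET1A, and it was higher, as were 9.75% of all probe sets, while 5.2% were lower. For 8 d against 0 d the count was 3 of 6, all higher (NET1A, NET4B and NET1C), where 25.4% of all probe sets were called higher and 18.1% lower. Between 2 d and 8 d 2 of 6 were called, both higher (NET1A and NET4B), against 7.36% of all probe sets called higher and 14.7% called lower. The median log2 change of the 6 was 0.39 at 2 d against 0 d, 0.99 at 8 d against 0 d and 0.69 at 8 d against 2 d, beside 0.19, 0.40 and 0.26 for all probe sets.

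Without the fold threshold, 3 of 6 genes at 2 d against 0 d, 5 of 6 at 8 d against 0 d and 4 of 6 at 8 d against 2 d had an adjusted p under 0.05 by limma, beside 63.5%, 90.1% and 76.5% of all probe sets, so these shares were near or below the background. Every array at 8 d was above every array at 0 d for 5 of the 6 genes, all but NET2D, as for 55.2% of all probe sets. At 2 d against 0 d the arrays were all higher for 3 genes (NET1A, NET1B and NET1C), as for 43.4% of all probe sets, and all lower for NET2D, as for 27.1%. Between 2 d and 8 d they were all higher for 4 genes (NET1A, NET1D, NET2D and NET4B), as for 48.1%. Few members and a background this large leave no basis for calling the counts particular to the NET family.

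**Figure D3:**
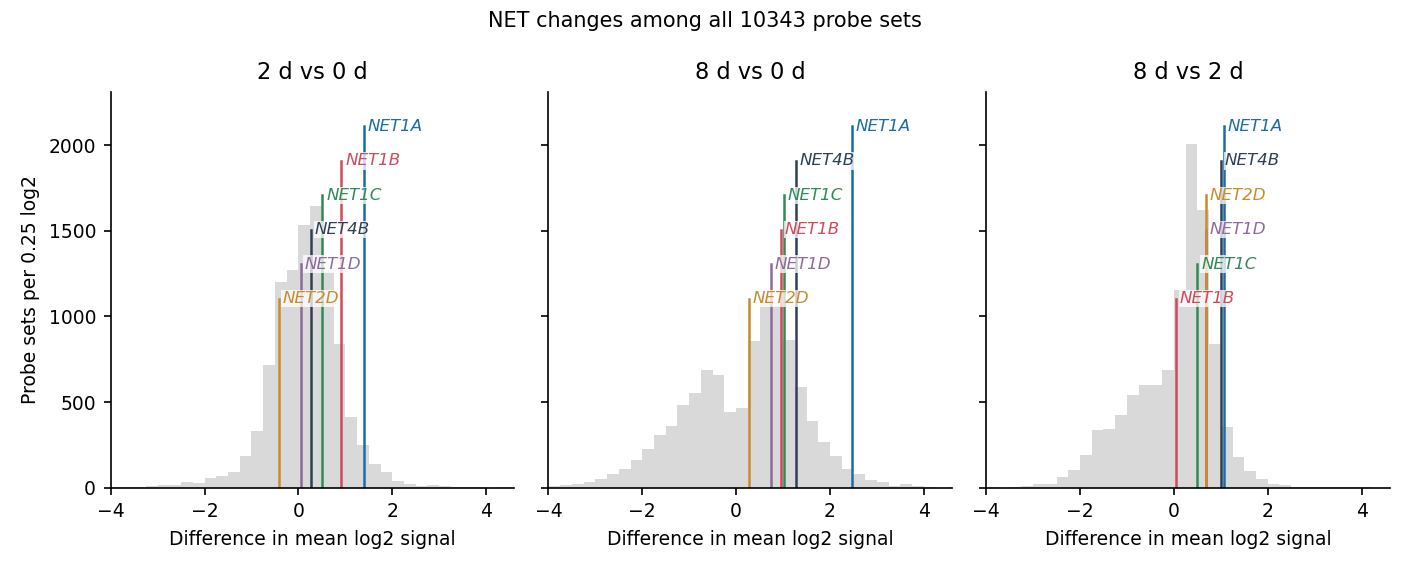
Number of probe sets per 0.25 log2 (y axis, gray bars) by difference in mean log2 signal (x axis) in the 3 comparisons, with a coloured line at the value of each NET gene. Line height only spaces the labels. NET1A lies in the upper tail in each panel, and at 8 d vs 0 d the other NET genes lie between 0.27 and 1.28, in or near the upper of the 2 humps of the distribution.

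The time courses of the NET genes were set beside each other, and whether they differ was not tested. Likeness was measured as the root mean square difference between log2 signals over the 9 arrays, each gene centred on its own mean. Spread between replicate arrays adds to it, so genes with the same course would also lie above 0. Among the 15 pairs of NET genes the closest were NET1D with NET2D at 0.32 and NET1D with NET4B at 0.33, and the farthest was NET1A with NET2D at 0.99. NET1A differed from NET1B by 0.66, from NET1C by 0.65, from NET1D by 0.76 and from NET4B by 0.58, so that its nearest NET gene was of another clade. Among the other NET1 genes the distances were 0.42 for NET1B with NET1C, 0.44 for NET1B with NET1D and 0.38 for NET1C with NET1D. These distances describe 9 shared arrays and carry no test.

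Among the other 850 probe sets with 1 gene and a symbol beyond the locus, the closest to NET1A were PRH75, an RNA helicase, at 0.16, EXPA4, an expansin that loosens cell walls, at 0.16, and SHI, a transcription factor, at 0.21. Closest to NET1B was VIIIB, a myosin of class VIII, at 0.19, followed by AtRZ-1b, an RNA-binding protein, at 0.22 and APTX at 0.23. NET1C was nearest to DDL at 0.19, ILA at 0.20 and MED19A, a subunit of the Mediator complex of transcription, at 0.22. NET1D was nearest to cox1, a mitochondrial subunit of cytochrome c oxidase, at 0.15, ATKDSA2 at 0.19 and NRPB6B, an RNA polymerase subunit, at 0.19.

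NET2D was nearest to DELTA-OAT, an ornithine aminotransferase, at 0.12, UGT87A2, a glycosyltransferase, at 0.14 and GID1A, a gibberellin receptor, at 0.14. The genes nearest to NET4B were FIO1 at 0.13, GID1B, a second gibberellin receptor, at 0.14 and MAC3B, a spliceosome-associated protein, at 0.15. These names depended on scaling: under the 6 other scalings and added constants, NET1B kept 2 or 3 of its 3 nearest genes, NET1A, NET1D and NET4B kept 1 to 3, and NET1C and NET2D kept 0 to 3.

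Few other genes of the actin system had a probe set that is paired here with 1 gene. Others may be among the 4608 probe sets without a name here. Of 117 genes listed from general knowledge as actins, actin regulators, myosins, ROP signalling or NET partners, 15 were measured by such a paired probe set. Of these, 6 carry no name in the reference. At 2 d against 0 d 1 of the 15 was called higher and 1 lower, beside 9.75% and 5.2% of all probe sets. At 8 d against 0 d 4 were called higher and 2 lower, beside 25.4% and 18.1% of all probe sets. Between 2 d and 8 d 1 was called higher and 0 lower by limma, beside 7.36% and 14.7% of all probe sets. In that comparison 11 of the 15 had a limma adjusted p under 0.05 without a fold threshold, beside 76.5% of all probe sets. With 15 genes, these counts do not set the lists apart from the table. The median log2 change of the 15 was 0.22, 0.55 and 0.33 in these comparisons.

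ACT11, the only measured actin of 8 listed, went the opposite way to NET1A and NET4B. Its signal averaged 462 ± 12.4 at 0 d, 289 ± 35.4 at 2 d and 160 ± 28.4 at 8 d (SD, n = 3 each). It was at -0.68 at 2 d against 0 d (SE 0.14) and fell by 1.54 at 8 d against 0 d (SE 0.14, limma adjusted p = 4.12e-06). PLIM2b, a LIM protein of the actin-bundling group, fell by 1.03 at 2 d against 0 d (SE 0.13) and by 1.002 at 8 d against 0 d (SE 0.13), both at the fold threshold. Neither change was called with 16 added to each signal (-0.96 and -0.94) or with 64 added (-0.80 and -0.78). PLIM2b was also not called in either comparison after centring on hybridisation controls (-0.83 and -0.93) or with array weights (-0.92 and -0.94). Its 2 d value was also short of the threshold without 2 d replicate 1 (-0.91) or 0 d replicate 2 (-0.997), and its 8 d value was short of it without 8 d replicate 3 (-0.92) and when either 0 d replicate 2 (-0.97) or 0 d replicate 1 (-0.99) was left out. The other LIM genes WLIM1, WLIM2a and WLIM2b were at -0.07, -0.75 and -0.32 at 2 d against 0 d. At 8 d against 0 d they were at 0.25, -0.47 and 0.08, and none of them was called in either comparison.

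Both measured myosins, the motors that run on actin, had higher means at 2 d and 8 d than at 0 d without reaching the fold threshold. VIIIB had dim signals of 54.7 to 62.3 at 0 d, which cannot be judged against background without detection calls. It was at 0.90 at 2 d against 0 d (SE 0.15, limma adjusted p = 0.000648) and at 0.89 at 8 d against 0 d (SE 0.15, limma adjusted p = 0.000253). XI-I, a class XI myosin, was at 0.55 and 0.79 in the same comparisons. CRK, the ARPC5 subunit of the ARP2/3 complex that nucleates branched actin, was at 0.22 and 0.86, and PIR121, of the SCAR/WAVE complex that activates it, at 0.31 and 0.51.

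The loci without a name in the reference included the largest rises of the lists, and their place in the lists could not be checked against the reference. AT2G18900, the only list gene called higher at 2 d against 0 d, rose by 1.90 in that comparison (SE 0.21) and by 2.42 at 8 d against 0 d (SE 0.21). AT3G07540 at 1.65 (SE 0.34), AT2G43800 at 1.52 (SE 0.17) and AT5G55400 at 1.51 (SE 0.13) rose at 8 d against 0 d, while AT3G18060 was at -0.46 and AT1G20760 at 0.55. AT3G07540 was also called at 8 d against 2 d, at 1.14 (SE 0.34), and it was short of the threshold without 8 d replicate 1 (0.91), at 0.95 without 8 d replicate 2 and at 0.94 without 2 d replicate 3.

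**Figure D4:**
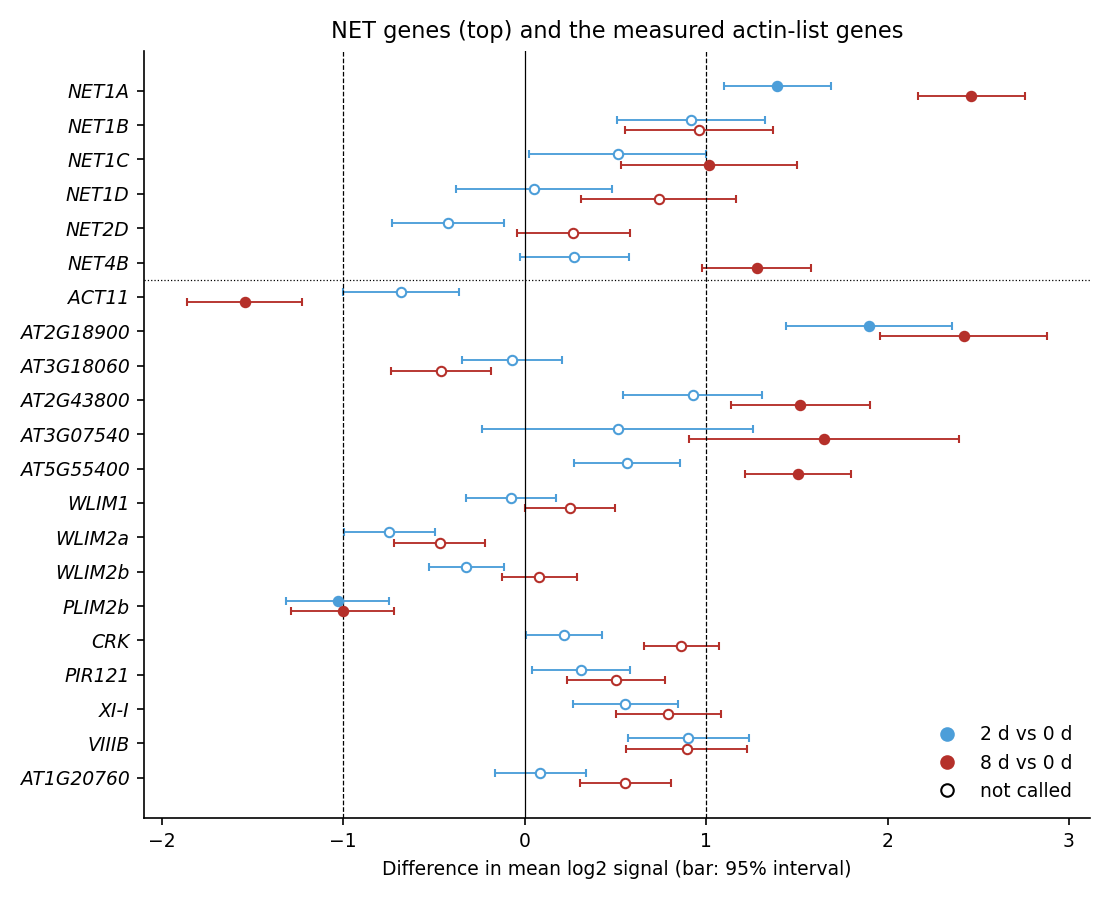
Difference in mean log2 signal (x axis) with 95% intervals from limma at 2 d vs 0 d and 8 d vs 0 d for the 6 NET genes (top) and the 15 measured genes of the actin lists (y axis). Filled points were called, and dashed lines mark a log2 change of 1 and -1. ACT11 (-1.54) and PLIM2b (-1.002) lie on the left at 8 d vs 0 d, and NET1A (2.46) and AT2G18900 (2.42) on the right.

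Calls of NET genes near the fold threshold depended on the settings. Those of NET1A over 0 d and of NET4B at 8 d against 0 d held in the settings run, though scaling brought some of them close to the threshold. The rise of NET1A was called in all 20 other settings run at 2 d against 0 d, where it ranged from 1.09 to 1.59, and in all 20 at 8 d against 0 d, where it ranged from 2.08 to 2.57. NET4B was called in all 20 at 8 d against 0 d, from 1.01 to 1.39, and the 1.01, after median centring, was at the threshold itself. NET1C at 8 d against 0 d was called in 12 of 19 settings, and 4 genes (NET1B, NET1C, NET1D and NET2D) were among the dimmest 40% of probe sets and could not be tested where these were left out.

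**Figure D5:**
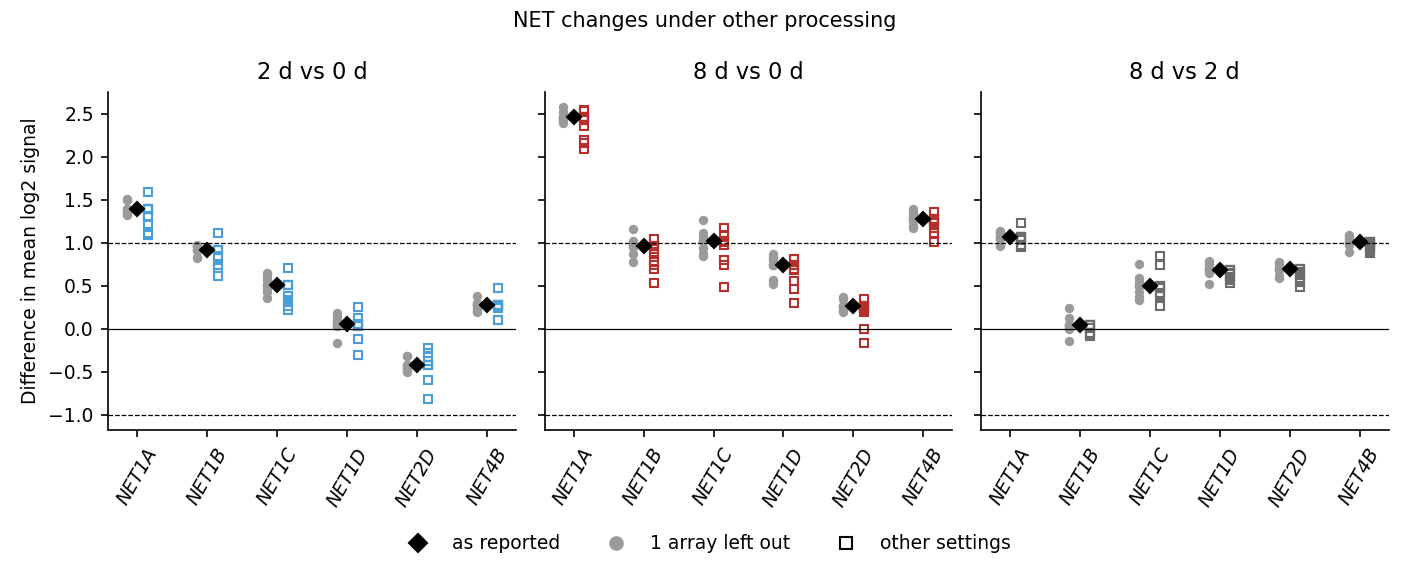
Difference in mean log2 signal (y axis) of each NET gene (x axis) in the 3 comparisons as reported (diamonds), with 1 array left out (gray circles) and under the other settings (open squares). Dashed lines mark a log2 change of 1 and -1. NET1A stays above 1 against 0 d, and at 8 d vs 2 d NET1A and NET4B lie across the threshold.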

How the data were processed

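Per the labels' protocols, total RNA was column-purified and labelled with biotin for Affymetrix arrays. The label named for the samples is a cyanine dye instead, a conflict that was not resolved here. The values the authors deposited are linear intensity (signal) per probe set, from 7.05 to 27573, and the submitters' processing notes name MAS5. How each array was scaled, and why these probe sets were kept, is not given in the sources used here. The table held 10343 probe sets and 23 controls.

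Log2 was taken with a floor of 1, which changed 0 values. Models with 1 mean per time point were fitted over all 9 arrays and all 10343 probe sets in limma (version 3.58.1, under R 4.3.3) by lmFit and eBayes, with two-sided p-values adjusted by Benjamini-Hochberg, and were tested on simulated data. A single gene was paired with 5521 probe sets (5503 found in the reference table) and several with 214, and 4608 had no name here. Every NET gene is named, with called list genes and the 3 nearest patterns; uncalled list genes are given as values besides. The NET genes and lists were chosen with earlier results of these data known. Replicate numbers were not used to pair arrays. Correlations of deviations ran from -0.09 to 0.23 for the 9 same-numbered pairs and from -0.27 to 0.23 for the 18 others. These ranges overlap, so they do not settle whether the numbers mark pairs.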

Additional observations from a re-analysis of the deposited data

How the results depend on the processing

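At 2 d against 0 d the number of NET genes called, 1, was 2 after centring on hybridisation controls or with a fold threshold of 1.5, and 3 without a fold threshold; it was 1 in each fit that left out 1 array. At 8 d against 0 d the number, 3, was 5 without a fold threshold or with one of 1.5, 4 after centring on hybridisation controls, and 2 after centring on the array median or 75th percentile, with 16 or 64 added or without the dimmest 40% of probe sets, and lay between 2 and 4 with 1 array left out. At 8 d against 2 d the number, 2, was 0 with 64 added or after centring on hybridisation controls or the array median, 1 after centring on the 75th percentile, with 16 added or with array weights, and 4 without a fold threshold or with one of 1.5; with 1 array left out it lay between 0 (without 2 d replicate 2) and 2, and was 1 without 2 d replicate 1 or 8 d replicate 3. Both genes called at 8 d against 2 d lie near the fold threshold, and the cause was not tested. The fit with the replicate number as a block gave 1, 3 and 2 calls, as many as the fit without it.

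Signs turned only for uncalled genes, as far as these settings went. NET1D at 2 d against 0 d became -0.30 (quantile), -0.12 (median), and from -0.16 (without 0 d replicate 1) to 0.18 with 1 array left out, and NET2D at 8 d against 0 d -0.17 (quantile) and -0.0043 (median). NET1B at 8 d against 2 d became -0.083 (quantile), -0.054 (median), -0.077 (hybridisation controls) and -0.050 (array weights), and with 1 array left out ranged from -0.14 (without 8 d replicate 1) to 0.25. Median centring shifted the median change of all probe sets to 0.01 at 2 d and 0.13 at 8 d against 0 d, and quantile normalization to 0.04 and 0.19. NET1B was called at 2 d after centring on hybridisation controls (1.12), and at 8 d against 0 d after the same (1.04) and when either 0 d replicate 1 (1.002) or 0 d replicate 3 (1.01) was left out, as when 8 d replicate 2 was (1.16), but was at 0.61 and 0.53 after quantile normalization and at 0.74 and 0.69 after median centring. Signal over background could not be judged without detection calls.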
